A study of Homo sapiens with 10 samples.

Results

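The microRNAs hsa-miR-221, hsa-miR-222 and hsa-miR-31 were followed through pull-downs of chosen messenger RNAs from 2 human cancer cell lines. They were chosen by name, without their passenger strands, and are 3 of 745 miRNA assays (742 different miRNAs). All 3 lie among the 375 miRNA assays of panel 1. The lines were HepG2, a liver tumour line, and PC-3, a prostate cancer line. A probe against the p21 mRNA or the STAT3 mRNA, or a control probe, was transfected for 24 hours, and the RNA held on it was collected on streptavidin beads (the submitters' miRIP method). HepG2 was purified with the p21, the STAT3 and the control probe, and PC-3 with the p21 and the control probe, which makes 5 purifications and 10 samples, because each was run on 2 quantitative PCR panels. The labels name no drug, allele or further treatment for either line, and no target of the control probe.

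A miRNA loaded on an Argonaute protein pairs with messenger RNAs mainly through its seed, the bases near its 5′ end, and the paired mRNA is repressed. miR-221 and miR-222 come from neighbouring hairpins and are textbook repressors of p27 and p57, relatives of the cyclin-dependent kinase inhibitor p21, and they are known as abundant in many cultured cancer lines, PC-3 among them. miR-31 is known for targets in cell adhesion and movement, and its gene is lost or silenced in some tumours and raised in others. STAT3 encodes a transcription factor that cytokine receptors activate.

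The mature sequences show why miR-221 and miR-222 are usually treated as a pair and miR-31 is not. They were read from RefSeq (GRCh38.p14), 5′ to 3′, with the seed, bases 2 to 8, in capitals. The panels name the assays without an arm, and the arms shown are those that carried the plain names in older nomenclature.
miR-221 (miR-221-3p): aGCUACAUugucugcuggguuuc
miR-222 (miR-222-3p): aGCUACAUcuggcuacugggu
miR-31 (miR-31-5p): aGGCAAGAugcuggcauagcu
The first 8 bases of miR-221 and miR-222 are identical, and 11 of 21 positions counted from the 5′ end hold the same base. The seed GCUACAU belongs to 2 of 2370 mature miRNA names in the table, these 2, and the seed GGCAAGA of miR-31 to 1. MIR221 (chrX:45746157-45746266, minus strand) and MIR222 (chrX:45747015-45747124, minus strand) are separated by 748 bases, and both lie within the long non-coding RNA gene MIR222HG. MIR31 (chr9:21512115-21512185, minus strand) lies within the long non-coding RNA gene MIR31HG.

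All 3 miRNAs were recovered from HepG2 with both target probes, and with the control probe miR-31 alone of the 3 stayed undetected. Levels are quantification cycles (Cq), the PCR cycle at which the signal crosses a threshold, so a lower Cq means more RNA, and a Cq of at most 35 was counted as detected. For miR-221 the p21 probe gave a Cq of 29.69 and the STAT3 probe 30.66, against 32.41 for the control probe. For miR-222 the p21 probe gave 30.71 and the STAT3 probe 30.78, against 32.49 for the control probe. For miR-31 the p21 probe gave 30.38 and the STAT3 probe 32.0003, against 35.20 for the control probe, just past the limit. For each of the 3 the control purification gave the highest Cq and the p21 purification the lowest. The p21 and STAT3 wells of miR-222 differed by 0.07 cycles, less than the error of repeated wells given below. Levels of different miRNAs are not set against each other, because assays differ in efficiency.

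In PC-3 miR-221 and miR-222 were detected with the p21 probe only, near the limit, and miR-31 with neither probe. miR-221 had a Cq of 33.92 with the p21 probe and no Cq with the control probe. miR-222 had 33.64 with the p21 probe, against 37.40 with the control probe. miR-31 had 38.47 with the p21 probe, against 39.04 with the control probe, and at such cycles few template molecules are present. The p21 well was the earlier one for both members with a Cq in each PC-3 purification, but both miR-31 wells and the miR-222 control well lay past the limit.

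**Figure D1:**
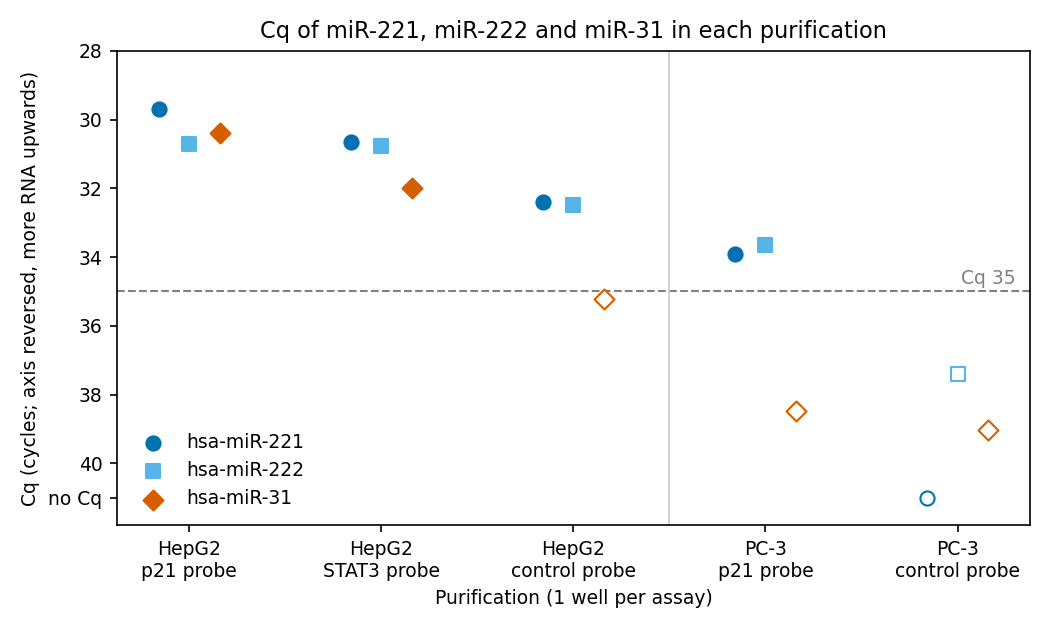
Cq of miR-221, miR-222 and miR-31 (vertical axis in cycles, reversed so that more RNA is higher) in the 5 purifications, 1 well per assay; open symbols lie past the limit of Cq 35 (dashed line) or gave no Cq. In HepG2 all 3 members stand highest with the p21 probe, miR-221 at Cq 29.69, and in PC-3 the detected members lie near the limit, at Cq 33.92 and 33.64.

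Counted over purifications, 3 of 3 members were detected with the p21 probe in HepG2, 3 with the STAT3 probe and 2 with the control probe, and in PC-3 2 with the p21 probe and 0 with the control probe. On panel 1 as a whole the share of miRNA assays detected was 34.1% with the p21 probe, 37.1% with the STAT3 probe and 28.8% with the control probe in HepG2, and 10.1% and 2.13% with the p21 and control probes in PC-3. Detection of panel 1 assays in general was thus also lower in PC-3 than in HepG2, and lower with each control probe than with the target probes.

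Each condition was purified 1 time, so there is no test between conditions and no p-value, and the error of transfection and purification is unknown. The only error at hand is technical. From assays spotted on each panel, the SD of a difference between purifications was 0.72 cycles (14 pairs), and that of the difference between the shifts of 2 assays 1.02 cycles. These SDs cover wells within the limit only, and wells near Cq 35 are less precise. Most of the pairs came from non-miRNA reference assays, named below, and the HepG2 pairs share their control wells. The only miRNA among them was miR-103. In HepG2 its shift on panels 1 and 2 was 5.59 and 3.32 cycles with the p21 probe, and 2.32 and 0.80 with the STAT3 probe. The SDs may thus be too small for miRNA assays. Cell-type markers were read in the same wells. These hold RNA recovered on a probe and not whole-cell RNA, so the markers cannot tell the identity of either line. The liver miRNA miR-122 gave no Cq in any purification. In HepG2 0 of 6 liver miRNAs were detected with the p21 probe, 4 with the STAT3 probe and 0 with the control probe. Of 5 epithelial miRNAs used as prostate markers, 1, miR-205, was detected in PC-3, at Cq 34.66 with the p21 probe, and 0 with the control probe. More of these 5 were detected in HepG2 with the STAT3 probe, 4 (miR-141, miR-200c, miR-205 and miR-375), against 0 with the control probe, and miR-205 had Cq 32.65 with the p21 probe there. Of 4 blood-cell miRNAs, 2, 3 and 3 were detected in HepG2 with the p21, STAT3 and control probes, at Cq 31.53 or above, and 0 in PC-3; their part in the results was not tested.

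With the p21 probe in HepG2, miR-31 shifted most of the 3, miR-221 less and miR-222 least. As read, the Cq of miR-31 was 4.83 cycles lower with the p21 probe than with the control probe, that of miR-221 2.73 cycles and that of miR-222 1.78 cycles. The median miRNA assay of panel 1 measured with both probes moved by 1.30 cycles the same way (87 assays). Relative to that median, the p21 purification held 2.68-fold more miR-221 (1.42 log2 units) and 1.39-fold more miR-222 (0.47), with 1 cycle taken as 1 log2 unit. miR-31, undetected with the control probe, was at least 9.98-fold higher, with the control set at Cq 35, and the 35.20 read in that well would give 11.5-fold. miR-221 stood 30th and miR-222 43rd from the top of 103 assays measured with both probes.

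The 2-fold size that miR-221 passed was common in this comparison. It was passed upwards by 37.9% of the 103 assays, and 14.5% of the 745 assays were, like miR-31, detected with the p21 probe only. These shares cover both panels. On panel 1, where the members lie, 128 of 375 miRNA assays were detected with the p21 probe, 87 of them with the control probe too. The shift of miR-222 relative to the median was smaller than the SD of repeated wells. miR-221 and miR-222 differed from each other by 0.95 cycles, which is 0.94 of the SD for 2 shifts, so these wells do not tell the paired miRNAs apart. The shift of miR-31 exceeded that of miR-222 by 3.05 cycles and that of miR-221 by 2.10 cycles, 3.0 and 2.07 times that SD, with the control well of miR-31 past the limit. With that well set at Cq 35 the excess was 2.84 over miR-222 and 1.89 over miR-221. Such differences between members on the same panel do not depend on how the panel is centred.

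How far the members stood out depended on what they were set against. The non-miRNA references of panel 1, which are U6 of the spliceosome and 2 small RNAs of the nucleolus, SNORD38B and SNORD49A, moved towards the p21 probe by 2.44 ± 0.51 cycles (SD over 3 assays), from 1.86 to 2.82. The shift of miR-221 fell inside that range and that of miR-222 just under it, while miR-31 was at least 2.18 log2 units above their mean. The miRNAs used as reference assays on these panels moved more, by 5.59 cycles (miR-103), 5.71 (miR-423-5p) and 4.49 (miR-191, with its control well past the limit). Against the mean of the reference assays detected with both probes, miR-221 was at -0.997 and miR-222 at -1.95 log2 units, and miR-31 at no less than 0.90. The synthetic spike-in UniSp6 moved by 0.24 cycles. UniSp3, the synthetic calibrator between plates, moved the other way on panel 1, by -2.28 cycles, with wells from 21.60 to 24.91 for the p21 probe and from 20.51 to 21.06 for the control probe, and its part in the shifts was not tested.

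**Figure D2:**
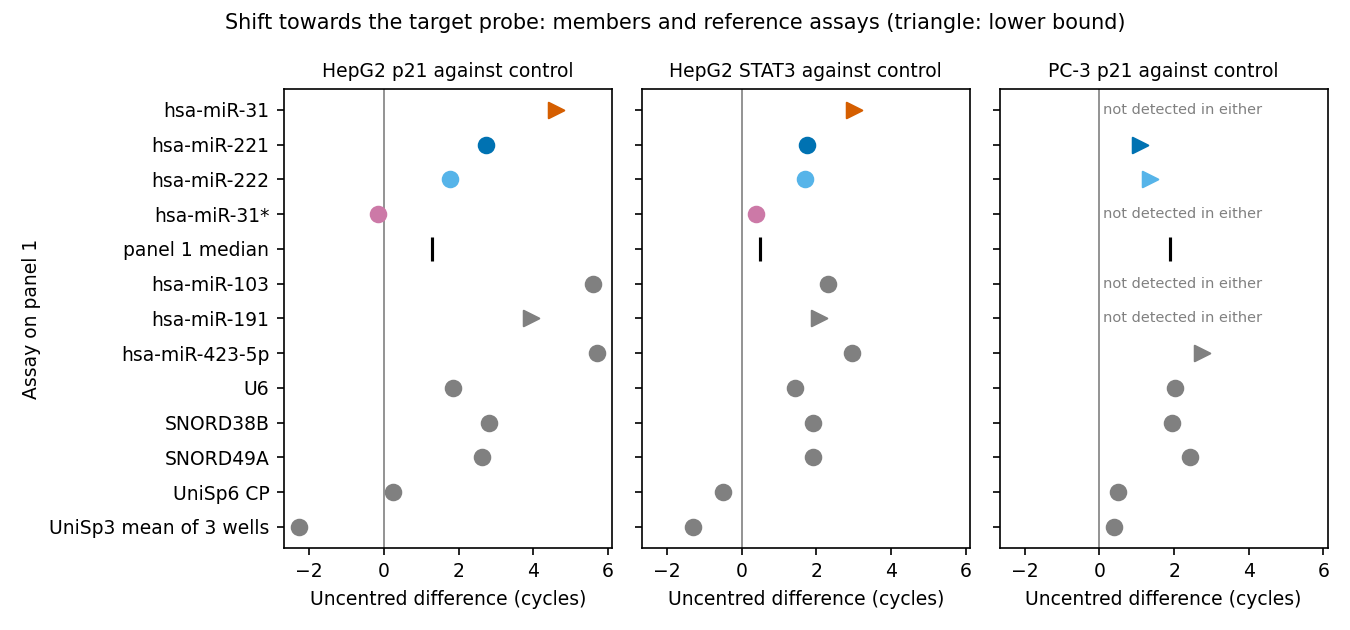
Uncentred difference in cycles (horizontal axis; positive means more RNA with the target probe than with the control probe) for the members, the passenger strand miR-31*, the median of panel 1 and the reference assays of panel 1, in 3 comparisons; triangles are lower bounds with the control at Cq 35. With both HepG2 target probes miR-31 lies to the right of U6, SNORD38B and SNORD49A, whose shifts averaged 2.44 and 1.75 cycles, while miR-221 and miR-222 lie within or near their range.

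The STAT3 probe in HepG2 gave shifts of nearly equal size for miR-221 and miR-222, and again a larger one for miR-31. The Cq of miR-221 was 1.75 cycles lower with the STAT3 probe than with the control probe, that of miR-222 1.70 cycles and that of miR-31, as read, 3.20 cycles. Relative to the median of panel 1, which moved by 0.49 cycles, miR-221 was 2.40-fold higher (1.26 log2 units) and miR-222 2.32-fold (1.21). They stood 23rd and 25th of 100 assays measured with both probes, of which 29.0% were at least 2-fold higher. miR-31 was at least 5.69-fold higher, and 20.9% of the 745 assays of both panels were detected with the STAT3 probe only. On panel 1 alone, 139 of 375 miRNA assays were detected with the STAT3 probe, 87 of them with the control probe too. This comparison shares its control purification with the one for p21.

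The pair moved with the non-miRNA references under the STAT3 probe. U6, SNORD38B and SNORD49A moved by 1.75 ± 0.27 cycles (SD over 3 assays), and centred on them miR-222 was at -0.05 and miR-31 at no less than 1.25 log2 units, with miR-221 within 0.01 of 0. Against the mean of the reference assays detected with both probes, which leaves out miR-191, miR-221 was at -0.35 and miR-222 at -0.40, and miR-31 at no less than 0.89. UniSp3 moved by -1.30 cycles on panel 1. miR-31 exceeded miR-221 by 1.45 cycles and miR-222 by 1.5 cycles, 1.43 and 1.48 times the SD for 2 shifts, and by 1.25 and 1.30 with the control well of miR-31 at Cq 35.

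Set directly against each other, without the control, the p21 and STAT3 purifications put miR-31 highest of the 3, near the 2-fold size. Relative to the panel median, which was 0.64 cycles towards p21, miR-31 was at 0.98 log2 units (p21 minus STAT3), miR-221 at 0.33 and miR-222 at -0.57. Relative to this median none of the 3 reached the 2-fold size, which 29.0% of 155 assays passed upwards. miR-31 passed it with no centring (1.62), at a limit of Cq 37 (1.20), with undetected wells at 35 (1.32) and on UniSp3 (2.60). The size was not reached on U6, SNORD38B and SNORD49A (0.94), on UniSp6 (0.90) or on the reference assays (-0.036). At a limit of Cq 32 the lower bound of miR-31 was 0.997. Relative to the panel median, only the value of miR-31 exceeded the SD of repeated wells, 0.72. Of the 155 assays, miR-31 stood 47th, miR-221 64th and miR-222 106th from the top. The shift of miR-31 exceeded that of miR-222 by 1.55 cycles, with all 4 wells within the limit, 1.52 times the SD for 2 shifts.

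In PC-3 the p21 probe gave no fold for any of the 3 against the control probe. Uncentred, miR-221 was at least 1.08 and miR-222 at least 1.36 log2 units higher with the p21 probe, with the control at Cq 35. U6, SNORD38B and SNORD49A moved by 2.14 ± 0.26 cycles (SD over 3 assays) and the panel median by 1.89 cycles, over only 6 assays. Both lower bounds lay below these shifts, so after centring they set no direction. The miR-222 wells as read differed by 3.76 cycles, which would be 1.87 log2 units above the median, but the control well was at Cq 37.40. Detection with the p21 probe only was the case for 5.77% of the 745 assays of both panels. On panel 1 alone, 38 of 375 miRNA assays were detected with the p21 probe, 6 of them with the control probe too.

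Although miR-221 and miR-222 are known as abundant in PC-3, their p21 wells came later in PC-3 than in HepG2, as the median assay of panel 1 did. As log2 differences, PC-3 minus HepG2, miR-221 was at -4.23 (Cq 33.92 in PC-3 and 29.69 in HepG2) and miR-222 at -2.93 (33.64 in PC-3 and 30.71 in HepG2). The median of the panel 1 miRNAs detected in both was -2.504 (31 assays), and the mean of U6, SNORD38B and SNORD49A -0.50, with an SD of 0.62 over 3 assays. Relative to the panel median miR-221 was at -1.73 log2 units and miR-222 at -0.42, and 37.8% of 45 assays were at least 2-fold lower. The value of miR-222 was smaller than the SD of repeated wells, 0.72, so it is not told apart from the panel median. miR-31, undetected in PC-3, was at -2.12 log2 units or lower there, and its wells as read, 38.47 in PC-3 and 30.38 in HepG2, differed by -8.09. With the PC-3 well of miR-31 set at Cq 35, its difference minus that of miR-221 was -0.39 and minus that of miR-222 -1.69, the first below the SD for 2 shifts, so miR-31 and miR-221 are not told apart within the limit. The amount of these miRNAs in the whole cells was not analysed here, so recovery and cellular level cannot be told apart.

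**Figure D3:**
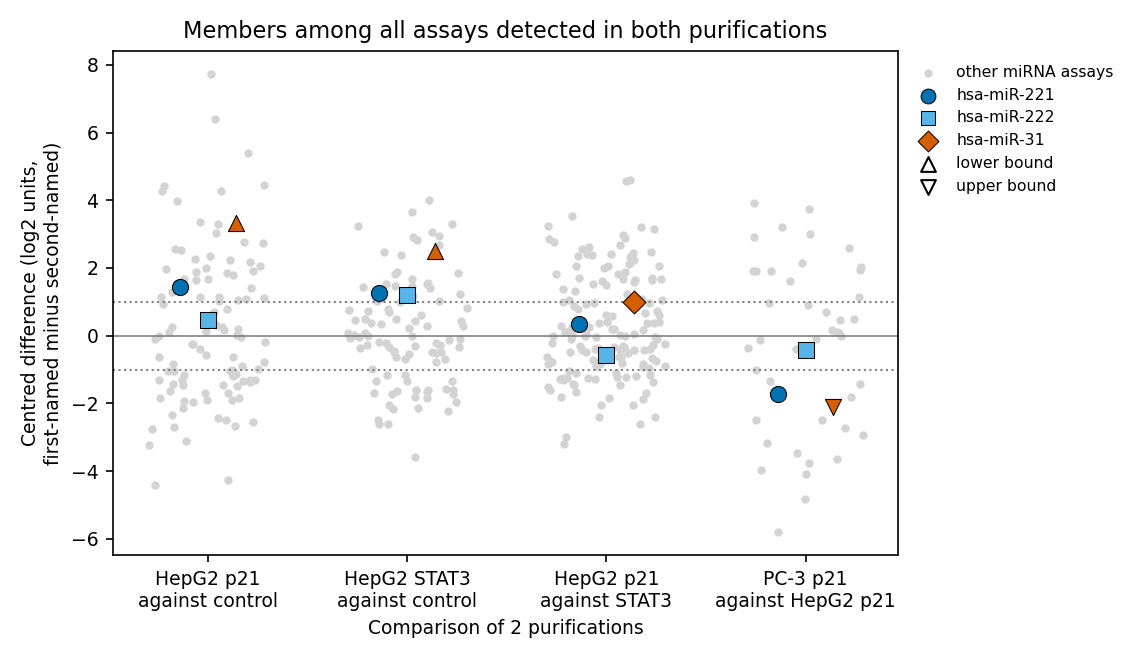
Centred difference in log2 units (vertical axis, first-named minus second-named purification) for all miRNA assays detected in both purifications (grey points) and the 3 members (coloured), with bounds as triangles and the 2-fold size as dotted lines. miR-221 and miR-222 lie inside the cloud in each comparison. The bounds of miR-31, 3.32 and 2.51 for the p21 and STAT3 probes against control, also lie inside it. Among the assays above them were miR-92a at 7.74 (p21) and miR-92b at 4.02 (STAT3).

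The passenger strand of the miR-31 hairpin had nearly the same Cq in all 3 HepG2 purifications. For miR-31* the p21 probe gave 34.92 and the STAT3 probe 34.37, against 34.76 for the control probe, and PC-3 gave no Cq. Its 3 HepG2 wells thus lay within 0.55 cycles of each other, close to the limit. Relative to the panel median, however, miR-31* was at -1.46 log2 units for p21 against control. It was at -0.10 for STAT3 against control and at -1.19 for p21 against STAT3. The shift of miR-31 exceeded that of miR-31* by 4.98 cycles with the p21 probe and 2.81 cycles with the STAT3 probe, 4.90 and 2.77 times the SD for 2 shifts, and by 4.78 and 2.61 with the miR-31 control well at Cq 35. miR-221* and miR-222*, both on panel 2, were detected in 0 of 5 purifications, and miR-222* gave no Cq at all. In the direct comparison of the p21 and STAT3 purifications the excess of miR-31 over miR-31* was 2.17 cycles with all wells within the limit.

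Over the 5 purifications miR-222 was among the 3 assays most like miR-221, and miR-31 was not among the 3 most like either. Likeness was the mean absolute difference of Cq after subtracting each assay's own mean, with undetected wells at 35, over 328 other assays detected at least once. For miR-222 the most similar assay was miR-221, at 0.33 cycles, followed by miR-30b (0.40) and miR-99b (0.42). For miR-221 the most similar were miR-20a (0.31) and miR-93 (0.32), which share a seed with each other, and then miR-222 as the third. For miR-31 they were the panel 2 assay of miR-191 (0.28), let-7d (0.31) and the panel 1 assay of miR-191 (0.39), and both miR-191 wells with the HepG2 control probe lay past the limit as miR-31 did, at 35.93 and 35.55. miR-31 was the 20th most similar assay to miR-221 (0.66) and the 43rd to miR-222 (0.89). Apart from the 0.89 between miR-31 and miR-222, these values are below the SD of a single Cq between panels (0.68 over 27 pairs), so their order is a description only.

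Among 9 other miRNAs reported to repress p27 or p57, 4 were at least 2-fold higher with each target probe in HepG2. Of the 9, 6 were measured with the p21 and the control probe, of which 4 were at least 2-fold higher and 0 lower relative to the panel, with a median of 1.78 log2 units. The 4 were miR-92a (7.74), miR-92b (6.41), miR-24 (1.89) and miR-181a (1.66), and miR-196a (0.80) and miR-25 (0.25) lay between; miR-32 was detected with the control probe only. With the STAT3 probe 5 were measured with both probes and 4 were at least 2-fold higher, miR-92b (4.02), miR-92a (3.30), miR-25 (1.89) and miR-24 (1.44), with a median of 1.89 over the 5. miR-196a and miR-32 were detected with the control probe only, and miR-148a with the STAT3 probe only. The values of miR-221, 1.42 and 1.26, lay below both medians. In PC-3 miR-24, miR-92a and miR-92b were detected with the p21 probe only, and the other 6 with neither probe. Over all 745 assays 5.77% were detected with the p21 probe only in PC-3, and 10.1% of panel 1 was detected with that probe. The background of 37.9% and 29.0% given above applies to the 2-fold counts in HepG2.

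Of 13 further miRNAs abundant in epithelial cancer lines, 6 were measured with both probes in each HepG2 comparison against control. With the p21 probe miR-210 (1.98) and miR-27a (1.06) were at least 2-fold higher and miR-125b (-1.30) at least 2-fold lower, with a median of -0.19. A further 3, miR-30a, miR-22 and miR-100, were detected with the p21 probe only, as miR-31 was. With the STAT3 probe 1 of 6, miR-125b (1.86), was at least 2-fold higher and 1, miR-29a (-1.73), lower, with a median of 0.41, and 5 were detected with that probe only. The shares over all assays were 37.9% (p21) and 29.0% (STAT3) for the 2-fold size, and 14.5% (p21) and 20.9% (STAT3) for detection with the target probe only. In PC-3 1 of the 13, miR-27a, was detected with the p21 probe, at Cq 34.905, and 0 with the control probe. On panel 1 as a whole the shares detected there were 10.1% and 2.13%.

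The authors' deposited table of fold changes lists the members higher than the medians above do, because it is scaled differently. In the authors' deposited table the p21 folds in HepG2 are 20.9 for miR-31, 5.62 for miR-221 and 2.91 for miR-222, and the STAT3 folds are 11.2, 4.73 and 4.57. By these folds miR-31 stands 12th of 729 entries for p21 and 12th for STAT3. For p21 in PC-3 the authors' deposited table gives 1.82 for miR-222, 1.5 for miR-221 and 0.71 for miR-31. The last value is shared by 335 of the 729 entries of that comparison, miR-31* among them. It equals the UniSp6 ratio of the panel with both wells at the limit, so it carries no measurement of miR-31. The PC-3 folds of miR-222 and miR-221 rest on control wells that were undetected and set at the limit. They stand 22nd and 369th of the 729 entries. miR-221* and miR-222*, panel 2 assays detected with neither probe in PC-3, are listed at 1.51. The 1.5 of miR-221, a panel 1 assay, is close to that value, but the panels are scaled apart. UniSp6 moved by 0.49 cycles on panel 1 and by -0.59 on panel 2. On panel 1, assays undetected with both probes are listed at 0.71, below the 1.5 of miR-221. Ranks over all entries thus mix these 2 scales.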

How the data were processed

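Per the labels, RNA was isolated with TRIzol and measured on Exiqon SYBR Green panels. The deposited Cq table is not normalised and was used here as a score of 1 well per assay, and the second holds the authors' fold ratios, 2 to the power of minus ΔΔCt per the file headers, titled as logs but linear. The sources used here do not give the threshold or the software. The members' deposited folds were rebuilt from UniSp6 and a limit of Cq 35.

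Differences were the Cq of the second-named purification minus that of the first-named, centred per panel on the median of miRNA assays detected (Cq at most 35) in both. At least 1 log2 unit (2-fold) counted as higher or lower. Where 1 side was undetected, it was set at 35 and the value is a bound. The calculation was tested on simulated data (Python 3.11.15, pandas 2.3.3). Every simulated assay was detected, so the handling of undetected wells and bounds was not tested. Alternatives were other centres, limits of 32 and 37, undetected wells at 35 and the authors' folds. Members and lists were chosen with earlier results of these data known. Named were the members, their passenger strands, the 3 assays most like each, reference assays and listed miRNAs. Seed matches in the p21 and STAT3 mRNAs were not analysed here.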

Additional observations from a re-analysis of the deposited data

How the results depend on the processing

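No paired analysis was possible because each condition has 1 purification, and for the same reason none could be left out. Log2 differences are given for miR-221, miR-222 and miR-31 in that order, bounds included, where they moved by more than the SD of repeated wells or changed sign, and assay counts where they moved by over 1.5 times. Of 109 values of the members under the alternatives, 22 had the opposite sign to the main value. The Cq values were the same throughout, and only the centre, the limit or the value set for undetected wells differed. Among the 22 were 6 each for miR-221 and miR-222 with the p21 probe against control in PC-3. Their main values there, -0.82 and -0.53, are lower bounds that set no direction. For p21 against control in HepG2 the 3 were 2.73, 1.78 and 4.62 with no centring, -0.997, -1.95 and 0.90 on the reference assays, 0.29, -0.66 and 2.18 on U6, SNORD38B and SNORD49A, 2.49, 1.54 and 4.38 on UniSp6 and by the authors' deposited folds, and 5.004, 4.05 and 6.90 on UniSp3. The 39 assays at least 2-fold higher became 9 on the reference assays, 18 on U6, SNORD38B and SNORD49A, 88 on UniSp3, 6 at a limit of Cq 32, 64 at 37 and 74 with undetected wells at 35. For STAT3 against control they were -0.35, -0.40 and 0.89 on the reference assays, 0.0021, -0.048 and 1.25 on U6, SNORD38B and SNORD49A, 2.24, 2.19 and 3.49 on UniSp6 and by the authors' deposited folds, and 3.05, 3.003 and 4.298 on UniSp3. The 29 assays became 9 on the reference assays, 11 on U6, SNORD38B and SNORD49A, 44 on UniSp6, 71 on UniSp3, 4 at Cq 32, 48 at 37 and 55 with undetected wells at 35. For p21 against control in PC-3, miR-221 and miR-222 were at 1.08 and 1.36 with no centring, 0.58 and 0.87 on UniSp6 and by the authors' deposited folds, 0.68 and 0.97 on UniSp3, 1.04 and 1.32 at Cq 37, and 0.0042 and 0.29 with undetected wells at 35. For p21 against STAT3 the 3 were -0.68, -1.58 and -0.036 on the reference assays and 1.95, 1.05 and 2.60 on UniSp3, miR-222 was at 0.07 with no centring and miR-31 at 1.62, and the 45 assays became 26 and 85 on these, 12 at Cq 32, 85 at 37 and 76 with undetected wells at 35. For PC-3 against HepG2 they were -4.23, -2.93 and -4.62 with no centring, -2.98, -1.67 and -3.36 on the reference assays, -3.73, -2.43 and -4.12 on U6, SNORD38B and SNORD49A, -3.16, -1.86 and -3.55 on UniSp6, and -5.29, -3.98 and -5.67 on UniSp3, with miR-31 at -4.17 at Cq 37. The 17 assays at least 2-fold lower became 32 with no centring, 28 on U6, SNORD38B and SNORD49A, 34 on UniSp3, 4 at Cq 32, 38 at 37 and 68 with undetected wells at 35. At Cq 32, 0 members were detected in the HepG2 control and 0 in the PC-3 p21 purification, and bounds that fell on the far side of 0 gave no value.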
